A study of Saccharomyces cerevisiae with 8 samples.

Results

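The phosphate starvation genes of Saccharomyces cerevisiae are described here through the accessibility of their promoters: PHO5, PHO11, PHO12, PHO84, PHO89, PHO81, SPL2, VTC3, PHO8 and PHM8. These 10 genes were picked by symbol, with earlier results of these data known, out of 6002 protein-coding genes on the nuclear chromosomes, and all 10 symbols were found in the gene table. A promoter was taken as the 400 bp before and the first 100 bp after the annotated gene start. A summit, the highest point of a sub-peak, belonged to a gene when it lay in that window. Where a pair of values is given for a strain, the first is from 0 min and the second from 180 min.

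Open chromatin was mapped by ATAC-seq (the Tn5 transposase inserts sequencing adapters into exposed DNA) in haploid MATa cells of the S288c background. The 8 samples form 4 groups of 2. A control strain (CEN4, chromosome IV centromere without lox sites) and a strain with lox sites on both sides of that centromere (CEN4*) were each taken at 0 min without treatment and at 180 min in 1 uM beta-estradiol. After excision by Cre recombinase the second strain is called cen4-. The 4 peak lists used carry the strain codes 8 and 11 and a time in their names. Which code is CEN4 and which CEN4* is not stated in the labels, and the codes are used as names here. The labels name neither the promoter that drives Cre nor the phosphate content of the medium. With 1 list per code and time and no replicate values, no test between lists was possible and every difference below is a description.

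When phosphate is plentiful, the cyclin-dependent kinase Pho85 with its cyclin Pho80 phosphorylates the transcription factor Pho4 and keeps it out of the nucleus. In starvation the inhibitor Pho81 blocks that kinase, and Pho4, with the homeodomain protein Pho2, turns on genes for phosphatases, phosphate transporters and polyphosphate storage. PHO5 is the classical example of promoter chromatin: in its repressed state positioned nucleosomes cover most of the promoter and leave a short accessible stretch over a Pho4 site, and on induction these nucleosomes are removed.

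Of the 10 promoters, 6 had a summit in the window in every list: PHO5, PHO8, PHO81, SPL2, VTC3 and PHM8. Over all protein-coding genes a promoter summit was present in 64.7% and 64.6% of windows for code 8, and in 65.6% and 64.3% for code 11, so the share of the phosphate genes was near that background. PHO84 and PHO89 had no summit in the window, yet a region reached into it in every list, which made 8 of 10 windows with a region. The background for a region over the window was 73.0% and 73.1% (code 8) and 74.0% and 72.9% (code 11). PHO11 and PHO12 had no region over the window or the gene in any list. None of the 6 summits was lost and none was gained between 0 and 180 min. Over all genes 3.73% of summits were lost and 6.43% of empty windows gained one in code 8, and 4.39% and 4.46% in code 11.

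Summit height is given as relative pileup, the number of tags over the summit divided by the genome-wide background pileup of the same list, which was 413.8 and 439.2 for code 8 and 601.7 and 512.2 for code 11. Pileups were solved from the fold and p-value of the peak caller. Each has an exact 95% Poisson interval that covers counting error only, since tags can be PCR copies. The log2 change over time had a median 95% counting half-width of 0.09 (code 8) and 0.08 (code 11) at the 6 phosphate promoters. Over all promoters the SD of that change was 0.15 and 0.12. How many promoters have intervals that do not overlap between lists was not counted. Overlap is therefore only described gene by gene. The SD over all promoters exceeded the counting half-width in both codes. Intervals that do not overlap thus do not set a gene apart from other promoters. The median promoter summit had a relative pileup of 3.68 and 3.62 (code 8) and of 3.62 and 3.74 (code 11). The 6 phosphate promoters spanned nearly the whole range around it, from PHO5, among the lowest promoter summits of every list, to SPL2, at percentiles 89.7 to 92.6. SPL2 was the highest of the 6 in 3 lists, and PHO8 in code 8 at 180 min.

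**Figure D1:**
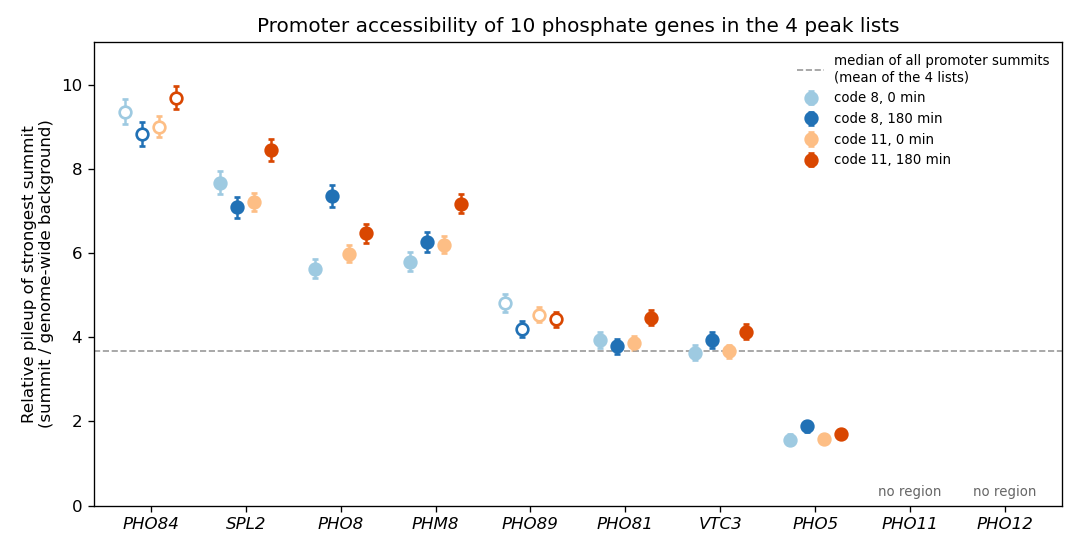
Relative pileup (summit over genome-wide background, no unit) of the strongest promoter summit of each phosphate gene in the 4 peak lists, with exact 95% Poisson intervals; open points are the strongest summits of PHO84 and PHO89, which lie upstream of the promoter window. PHO5 sits between 1.57 and 1.88, under the dashed median of all promoter summits, and SPL2 between 7.09 and 8.44, over it.

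PHO5 (YBR093C, minus strand, chromosome II 429548 to 430951 in the R64 assembly, which sacCer3 represents) encodes the main acid phosphatase made in starvation. Its only promoter summit lay 352 to 364 bp upstream of the start in the 4 lists, in the 1084 bp gap to the divergent gene PBY1. In code 8 this summit had a relative pileup of 1.57 (interval 1.45 to 1.69) at 0 min and 1.88 (1.76 to 2.02) at 180 min. In code 11 it had 1.59 (1.49 to 1.69) and 1.70 (1.59 to 1.82). The intervals of code 8 do not overlap and those of code 11 do. PHO5 stood at percentiles 1.24 and 5.60 of all promoter summits in code 8 and at 1.63 and 2.62 in code 11, so its promoter was among the least accessible that carried a summit.

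Farther upstream, the same gap held 2 higher summits in each list. The middle one, 573 to 580 bp from PHO5, had 1.80 and 1.98 (code 8) and 1.79 and 1.97 (code 11). The one nearest to PBY1, 925 to 932 bp away, had 2.20 and 2.33 (code 8) and 2.31 and 2.41 (code 11). Of the 3 summits in this gap, the one nearest to PHO5 was thus the lowest in all 4 lists. The middle summit had intervals of 1.67 to 1.93 and 1.85 to 2.11 (code 8), and 1.68 to 1.90 and 1.85 to 2.09 (code 11). Those of the summit nearest to PHO5 overlapped them except in code 11 at 180 min. The region over the PHO5 window was 371 bp and 750 bp wide for code 8, and 735 bp and 402 bp wide for code 11. The wide form held all 3 summits and the narrow form the 2 nearest to PHO5.

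PHO3 (YBR092C), which lies just downstream of PHO5 in tandem and encodes an acid phosphatase not induced by starvation, is shown beside it, chosen after its values were seen. Its summit, 286 to 290 bp upstream of PHO3, had 4.58 and 3.83 (code 8) and 4.31 and 4.54 (code 11). At 0 min the PHO3 summit of code 8 was therefore far higher than that of PHO5. In code 8 the log2 change over time was 0.27 ± 0.15 (95% counting half-width) at PHO5 and -0.26 ± 0.09 at PHO3, and in code 11 it was 0.10 ± 0.13 and 0.07 ± 0.08.

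PHO11 (YAR071W, chromosome I 225460 to 226863) and PHO12 (YHR215W, chromosome VIII 552099 to 553502) encode further secreted acid phosphatases and lie near the right ends of their chromosomes. Both are annotated at the same length as PHO5. The nearest region before PHO11 ended 5.05 to 5.06 kb from its start, and the nearest one before PHO12 ended 3.27 to 3.28 kb from its start. Regions were listed on the other side, 153 to 389 bp beyond the end of PHO11 and 109 to 237 bp beyond the end of PHO12. The genes are near-identical copies of each other, and how reads that fit both places were handled is not stated by the labels. The missing regions therefore cannot be read as closed chromatin.

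Both high-affinity transporter genes had their summits just outside the window. PHO84 (YML123C, chromosome XIII 24037 to 25800) encodes the proton-coupled phosphate transporter of the plasma membrane, and PHO89 (YBR296C, chromosome II 796798 to 798522) the sodium-coupled one. The PHO84 summit lay 439 to 445 bp upstream and that of PHO89 514 to 517 bp upstream, while the nearest summit inside the limit of 400 bp was that of PHO81 at 388 to 394 bp.

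The PHO84 summit had the highest relative pileup of the set in every list. It had a relative pileup of 9.35 (9.06 to 9.65) at 0 min and 8.82 (8.54 to 9.10) at 180 min in code 8. In code 11 it had 9.0 (8.76 to 9.24) and 9.69 (9.42 to 9.96). It lay within YML122C, the annotated reading frame 237 bp upstream on the same strand, in a region of 1075 to 1078 bp. The local background there was 1.80 to 1.92 times the genome-wide one, so the fold over local background in the deposited lists was 4.68 to 5.04. By that fold the strongest SPL2 summit was higher in every list, with 4.74 to 5.51. The fold of the PHO84 summit was 4.89 at both times in code 8. A weaker summit 871 to 889 bp upstream had 3.73 and 3.26 (code 8) and 3.55 and 3.72 (code 11), and both summits were lower at 180 min in code 8 and higher in code 11.

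The PHO89 summit stood alone in the 2000 bp between PHO89 and the divergent gene MAL33, as far as 1000 bp upstream. It had 4.82 (4.61 to 5.03) and 4.20 (4.01 to 4.39) in code 8 at 0 and 180 min, and 4.54 (4.37 to 4.71) and 4.42 (4.24 to 4.61) in code 11. The code 8 intervals do not overlap and the code 11 intervals do. The region over it was 652 bp wide at 0 min in code 8 and 397 bp at 180 min, and 521 bp and 400 bp in code 11.

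**Figure D2:**
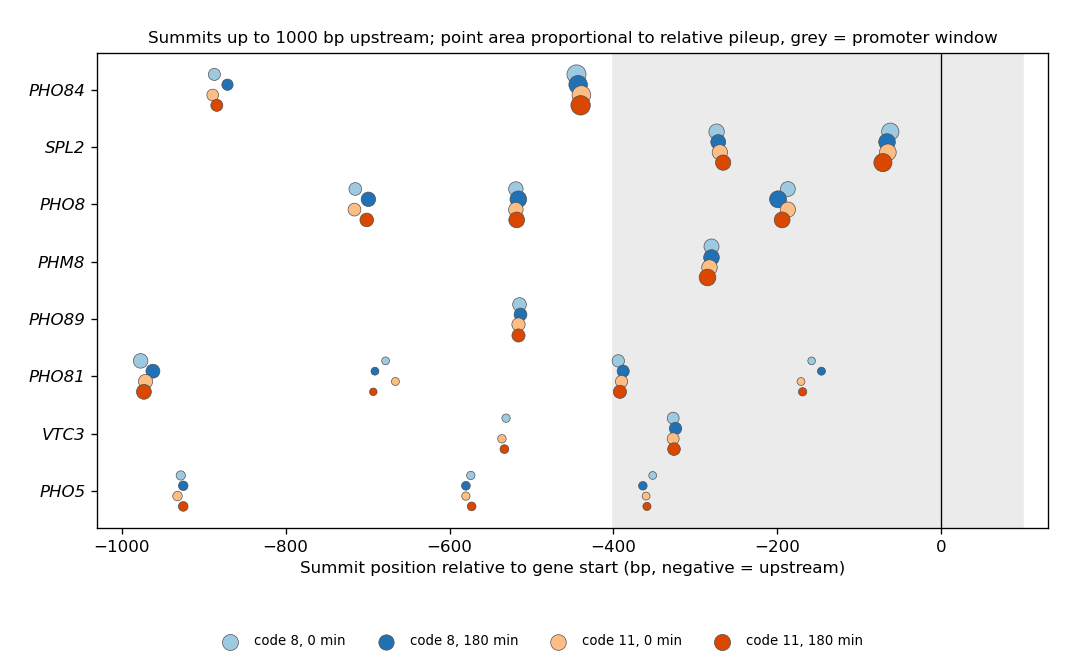
Positions of all summits within 1000 bp before and 100 bp after the gene start (x axis, bp) for the 8 phosphate genes with a region; each row of points is a list and point area is proportional to relative pileup. Summits of a gene line up between the lists within 2 to 12 bp for the strongest one in the window, and PHO84 and PHO89 lie left of the grey promoter window.

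The signalling genes PHO81 and SPL2 had 2 window summits each in every list. PHO81 (YGR233C, chromosome VII 954674 to 958210) encodes the inhibitor of Pho80-Pho85. Its stronger summit had 3.92 (3.73 to 4.12) and 3.78 (3.60 to 3.97) in code 8, and 3.86 (3.70 to 4.02) and 4.46 (4.28 to 4.65) in code 11. Only code 11 at 180 min stood clear of the other lists. A weak summit 146 to 171 bp upstream had 1.5 and 1.64 (code 8) and 1.59 and 1.78 (code 11). In the 1693 bp to the divergent YHB1, which encodes a flavohemoglobin, a further weak summit at 666 to 693 bp had 1.58 and 1.6 (code 8) and 1.63 and 1.47 (code 11). The highest summit within 1000 bp of PHO81, at 962 to 977 bp, had 5.43 and 4.99 (code 8) and 5.22 and 5.72 (code 11). A single region of 1636 to 1710 bp joined them all in each list.

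SPL2 (YHR136C, chromosome VIII 374654 to 375100) encodes a small protein that lowers low-affinity phosphate uptake in starvation. It shares a gap of 608 bp with the divergent ARO9, an aromatic aminotransferase gene, and 1 region of 1429 to 1438 bp covered the gene and most of the gap. The summit 62 to 71 bp upstream had 7.67 (7.41 to 7.94) and 7.09 (6.84 to 7.34) in code 8. In code 11 it had 7.20 (6.99 to 7.42) and 8.44 (8.19 to 8.70). The order of the times was opposite in the codes, with intervals that do not overlap in either. Among the changes of all promoters, that of SPL2 stood at percentile 21.3 in code 8 and 97.0 in code 11. In code 8 the local background at this summit went from 1.52 to 1.42 times the genome-wide one. Its deposited fold over that background went from 5.04 to 5.00, and in code 11 from 4.74 to 5.51. By that fold SPL2 hardly differed over time in code 8. The summit 266 to 274 bp upstream, toward ARO9, had 6.09 and 5.69 (code 8) and 6.07 and 6.02 (code 11). In code 11 its log2 change was thus -0.01 ± 0.07, where that of the summit next to SPL2 was 0.23 ± 0.06. Within the SPL2 gene body a summit was listed at 0 min, with 2.50 (code 8) and 2.54 (code 11). It lay 281 and 294 bp after the start, and none was listed there at 180 min in either code. How often gene-body summits were lost over all genes was not counted.

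VTC3 (YPL019C, chromosome XVI 514511 to 517018) encodes a subunit of the vacuolar complex that makes polyphosphate, and it is divergent from the kinetochore gene CTF19 across 632 bp. Its summit was the most fixed in place, at 325 to 327 bp upstream. It had 3.63 (3.45 to 3.82) and 3.93 (3.75 to 4.12) in code 8 and 3.66 (3.51 to 3.82) and 4.13 (3.95 to 4.31) in code 11. The value at 180 min was the higher one in both codes, and the intervals overlap in code 8 and not in code 11. The log2 change in code 8 was 0.11, with a counting interval of 0.01 to 0.21 that does not include 0. A weak summit toward CTF19, 531 to 536 bp from VTC3, was listed at 1.79 in code 8 at 0 min and at 1.85 and 1.98 in code 11, and was not listed in code 8 at 180 min.

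PHO8 and PHM8 encode intracellular phosphatases, PHO8 the alkaline phosphatase of the vacuole and PHM8 a soluble enzyme that releases phosphate from nucleotides. PHM8 (YER037W, plus strand, chromosome V 225889 to 226854) had a single summit 281 to 286 bp upstream in the 689 bp shared with the divergent ARB1. It had 5.79 (5.56 to 6.03) and 6.26 (6.03 to 6.50) in code 8, and 6.20 (6.0 to 6.40) and 7.17 (6.94 to 7.41) in code 11. The 180 min value was again the higher one in both codes. Its deposited fold over local background was 3.49 and 3.56 in code 8, and 3.63 and 3.92 in code 11.

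PHO8 (YDR481C, chromosome IV 1418550 to 1420250) is the only one of the 10 genes on the chromosome whose centromere can be excised, and starts 970.5 kb from the midpoint of the gap that holds CEN4. Its window summit, 187 to 199 bp upstream, lay just inside the small tandem gene CWC21, which ends 180 bp away. This summit had 5.62 (5.40 to 5.86) at 0 min and 7.35 (7.09 to 7.60) at 180 min in code 8. In code 11 it had 5.98 (5.79 to 6.18) and 6.46 (6.25 to 6.69). A summit 516 to 519 bp upstream, also in CWC21, had 5.39 and 7.12 (code 8) and 5.42 and 6.42 (code 11). The summit 699 to 716 bp upstream had 4.15 and 5.38 (code 8) and 4.20 and 4.79 (code 11). All 3 summits were thus higher at 180 min in both codes, by log2 0.37 to 0.40 in code 8 and 0.11 to 0.24 in code 11. PHO8 also had 1 summit in its gene body in each list, 365 to 384 bp after the start, with 1.65 and 2.19 (code 8) and 1.65 and 1.51 (code 11).

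The first comparison the design implies is 180 min against 0 min within each code. In code 8 the 6 promoters with a window summit had log2 changes from -0.11 at SPL2 to 0.39 at PHO8, and 4 of 6 were above 0, where 41.6% of all 3741 promoters with a summit in both lists were. Their median was 0.11, beside a median of -0.03 (SD 0.15) over all promoters. PHO8, at 1.31-fold, was the only one with a log2 change past 0.32, the size taken as a call here, and 0 were lower by that much. Over all promoters 2.06% were at least 0.32 higher and 1.02% lower. PHO5, at 1.2-fold, came closest after PHO8. Relative to the median of chromosome II, PHO5 was higher by 0.31, with a counting half-width of 0.15. This was percentile 99.6 of the promoters there. The same measure was 0.20 for PHO8 on chromosome IV. The local background of PHO5 was 1.00 times the genome-wide one at both times, and its deposited fold went from 1.56 to 1.88.

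The value of PHO8 in code 8 stood beside a general difference of its chromosome. The 522 chromosome IV promoters had a median log2 change of 0.18 (SD 0.14) and 13.4% had 0.32 or more, against a median of -0.05 and 0.217% on the other chromosomes. Relative to the median of its chromosome PHO8 was higher by 0.20, at percentile 91.8 of the chromosome IV promoters. Its local background went from 1.21 to 1.47 times the genome-wide one, and its deposited fold over that background from 4.63 to 4.98. Under that fold, or after subtraction of the chromosome median, 0 of the 6 promoters passed 0.32. In code 11 the chromosome IV median was 0.05, with 0.392% of its promoters and 0.522% of the others at 0.32 or more, and PHO8 had 0.11 ± 0.07. The part of the chromosome-wide difference in the PHO8 value was not tested.

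**Figure D3:**
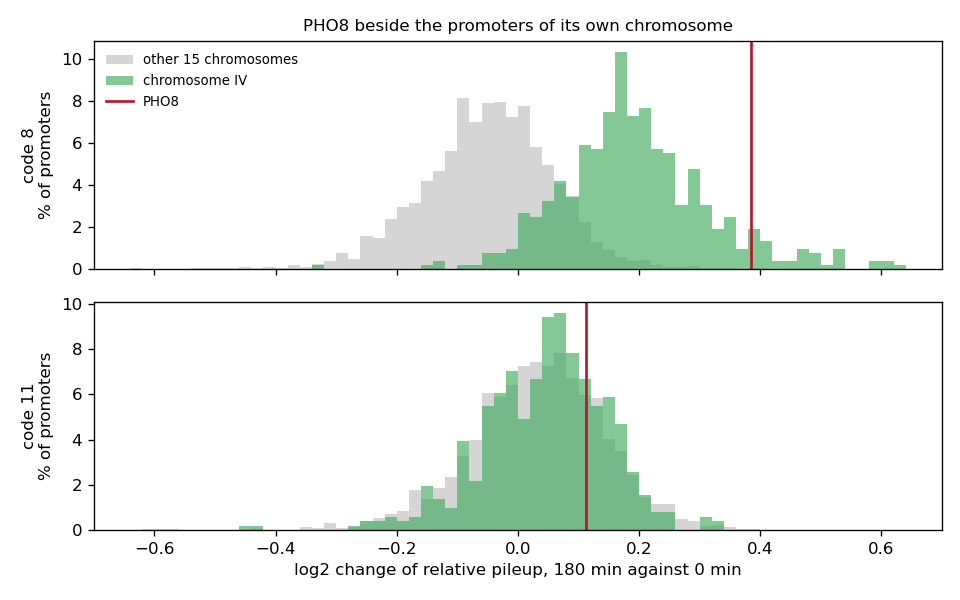
Distribution of the log2 change of relative pileup from 0 to 180 min (x axis) over promoters of chromosome IV and of the other 15 chromosomes, in percent of promoters (y axis), with PHO8 as a red line. In code 8 PHO8 at 0.39 lies in the upper part of a shifted chromosome IV distribution, and in code 11, at 0.11, both distributions lie on each other.

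In code 11 all 6 promoters with a window summit had a higher relative pileup at 180 min, with log2 changes from 0.10 at PHO5 to 0.23 at SPL2. Of all 3765 promoters 64.2% were higher. The median of the 6 was 0.19, beside 0.04 (SD 0.12) over all promoters. None passed 0.32, and over all promoters 0.505% were that much higher and 0.425% lower. PHO81, PHM8 and SPL2 had 0.21 ± 0.08, 0.21 ± 0.07 and 0.23 ± 0.06, VTC3 had 0.17 ± 0.09 and PHO5 had 0.10 ± 0.13, an interval that includes 0. Of the transporters outside the window, PHO84 had 0.11 ± 0.06 and PHO89 had -0.04 ± 0.08.

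Both codes thus had higher values at 180 min for PHO5, PHO8, VTC3 and PHM8. Of all promoters 41.6% were higher in code 8 and 64.2% in code 11. Among the 3649 promoters with a summit in every list, 44.3% had opposite signs in the codes. Lower in code 8 and higher in code 11 were 33.8%. The share higher in both was not counted, so no background is given for these genes. PHO81 and SPL2 had -0.05 ± 0.10 and -0.11 ± 0.07 in code 8. PHO84 had -0.09 ± 0.06 there and PHO89 -0.20 ± 0.09, the lowest value of the 8 genes with a summit.

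**Figure D4:**
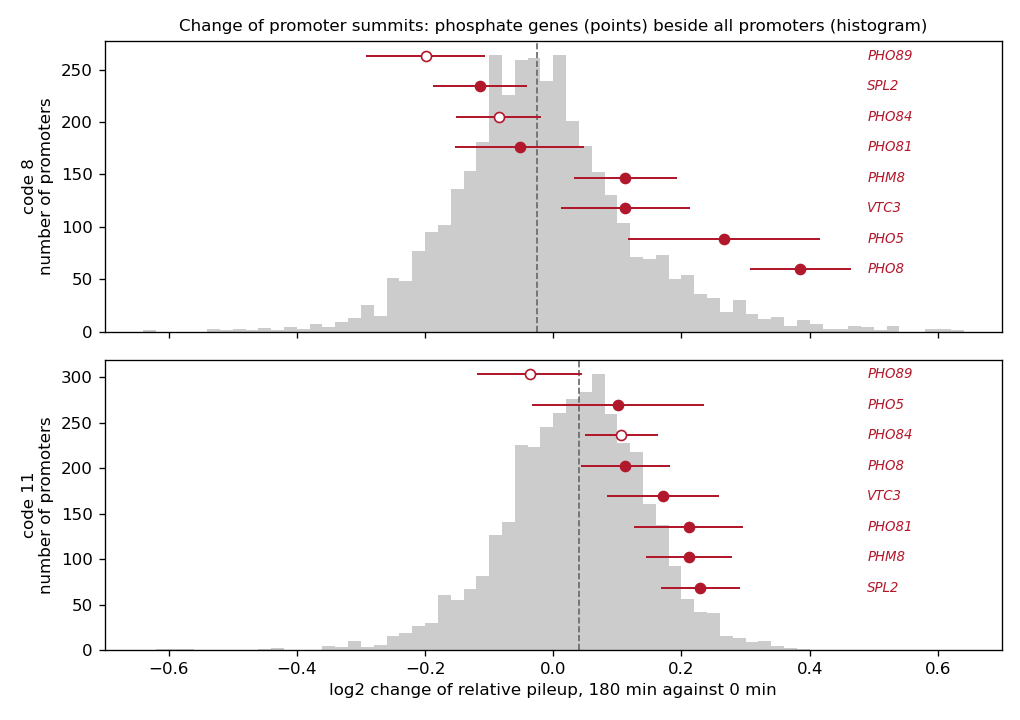
Log2 change of relative pileup from 0 to 180 min (x axis) for the phosphate genes (red points with 95% counting intervals, open for the summits of PHO84 and PHO89 outside the window) over the histogram of all promoters (number of promoters), with its median dashed. In code 8 the genes spread from -0.20 to 0.39, and in code 11 all window summits lie between 0.10 and 0.23.

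The second comparison sets code 11 against code 8 at one time. These differences use the same lists as the changes over time and are not independent of them. At 0 min the codes were close: the 6 promoters ranged from -0.09 at SPL2 to 0.10 at PHM8 (log2, code 11 over code 8), with a median of 0.02 beside -0.02 (SD 0.09) over all promoters. Of the 6, 4 were higher in code 11, beside 41.3% of all promoters. None differed by 0.32, where 0.289% of 3805 promoters did.

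At 180 min the differences were wider. SPL2 was higher in code 11 by 0.25 ± 0.07, PHO81 by 0.24 ± 0.09 and PHM8 by 0.20 ± 0.07, while VTC3 had 0.07 ± 0.09. PHO8 had -0.18 ± 0.07 and PHO5 -0.14 ± 0.14, so the 2 were the only ones lower in code 11. The median of the 6 was 0.13, beside 0.05 (SD 0.15) over all promoters. Of the 6, 4 were higher in code 11, where 67.8% of all promoters were, and 0 differed by 0.32, where 2.74% of 3729 did. At chromosome IV promoters the median difference was -0.16, which places PHO8 at percentile 39.5 of its own chromosome.

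A list of 26 other genes of phosphate metabolism gives the setting. It holds the regulators, enzymes of inositol pyrophosphates, low-affinity and other transporters, polyphosphate genes and further phosphatases. A window summit was present in 17 of 26 in 3 lists and in 18 in code 8 at 180 min. Over all protein-coding genes 64.3% to 65.6% of windows had one. Their median log2 change over time was 0.04 in code 8 and 0.08 in code 11 over the 17 genes with both values. Of all promoters 2.06% were at least 0.32 higher and 1.02% lower in code 8, and 0.505% and 0.425% in code 11. In code 8, 0 of 17 passed 0.32 in either direction, and in code 11, 1 was higher.

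That gene was PHO87 (YCR037C), a low-affinity phosphate transporter of the plasma membrane, with 3.31 (3.17 to 3.46) at 0 min and 4.25 (4.08 to 4.43) at 180 min in code 11. In code 8 it had 3.44 and 3.26, with overlapping intervals. A weaker PHO87 summit, 353 bp upstream in code 8 and 370 bp in code 11, was listed at 0 min with 1.80 and 1.77 and not at 180 min in either code. The 1 gene whose window held no summit at 0 min and gained one was KCS1 (YDR017C, chromosome IV 479115 to 482267), an inositol hexakisphosphate kinase gene close to CEN4. It had a summit of 1.92 (1.79 to 2.06) 196 bp upstream in code 8 at 180 min and no region over its window in the other 3 lists. Over all genes 6.43% of empty windows gained a summit in code 8. Chromosome IV promoters had a median log2 change of 0.18 there, and its part in the KCS1 gain was not tested.

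Among the regulators of the pathway, PHO4 (YFR034C) had 5.78 and 6.07 (code 8) and 5.71 and 6.15 (code 11). The local background at this PHO4 summit was 3.09 to 3.23 times the genome-wide one. Its deposited fold over that background was only 1.85 to 1.93. The PHO4 gene body held 3 summits in each list, and the strongest was far higher, at 16.0 to 17.5. It lay 699 to 718 bp after the start at 0 min and 897 to 898 bp at 180 min. The range of heights therefore does not follow a single summit. PHO85 (YPL031C) had 3.92 and 4.01 (code 8) and 4.01 and 3.94 (code 11). PHO80 (YOL001W) had no summit in the window, and its summit 477 to 482 bp upstream had 2.26 and 2.24 (code 8) and 2.12 and 2.20 (code 11). For these 3 genes the intervals of 0 and 180 min overlapped in both codes, except for PHO4 in code 11, where they were 5.52 to 5.90 and 5.93 to 6.36.

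PHO2 (YDL106C), on chromosome IV, had 5.41 and 5.93 in code 8 at its stronger summit and 5.63 and 5.56 in code 11. A weaker window summit, 379 to 387 bp upstream, had 3.54 and 4.63 (code 8) and 3.61 and 3.75 (code 11). The log2 changes in code 8 were 0.13 and 0.39 for these summits, around the chromosome IV median of 0.18.

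As the promoters most like PHO5 over the 4 lists, by the root mean square difference of log2 relative pileup among 3648 other genes with all values, YMR175W-A came first with 0.05, followed by YDR124W and SSB2, each with 0.06. YMR175W-A had 1.5 and 1.90 (code 8) and 1.68 and 1.66 (code 11). PHO84 has no window summit, so no such genes were named for it.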

How the data were processed

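The authors deposited 4 lists of ATAC-seq peaks; MACS2 2.2.4, Bowtie2 2.3.4.3, HOMER, Picard, SAMtools and the build sacCer3 are named per the submitters' processing notes, without roles. A Tn5 shift, pooling of replicates and treatment of multiply mapped reads are not given in the sources used here. Each deposited list gives per sub-peak a score, the fold enrichment over local background (a ratio), and -log10 of the p-value and the q-value. These are the authors' values. The score equalled 10 times the -log10 p, truncated.

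With fold as (pileup + 1)/(background + 1) and p as the upper Poisson tail, pileup and background were solved per summit (Python 3.11.15, numpy 2.4.6, scipy 1.17.1), which was tested on simulated data. Between 99.1% and 99.8% of pileups were whole within 0.05. The genome-wide background is the most frequent low background. Where a window held several summits the highest was used. Half-widths are 1.96 counting SE of log2. Gene positions came from a RefSeq table of R64, and strands from systematic names. One gene of the other list, HOR2, was matched by a synonym. The genes, lists, motifs and tests were chosen with earlier results of these data known. Named were all 10 genes, PHO4, PHO2, PHO80, PHO85, other phosphate genes that lost or gained a summit or changed by 0.32 (log2) over time, and the 3 genes most like PHO5. PHO3 was added after its values were seen. Promoter sequences and Pho4 motifs were not analysed here.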

Additional observations from a re-analysis of the deposited data

Results flagged for a closer look

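The change over time had opposite signs in the 2 codes at 3 of the 10 phosphate genes, each with 1 list per code and time, so the difference was not tested. Of the promoters with a window summit, 2 of 6 had opposite signs, beside 44.3% of all 3649 with a summit in every list, a share no higher than that background. At SPL2 the log2 change in code 11 minus that in code 8 was 0.34, at PHO81 it was 0.26 and at PHO84, measured at the summit outside the window, it was 0.19. Relative to the median change of all promoters in each code these differences were 0.28, 0.20 and 0.13. The code 8 change of PHO81 was -0.05 ± 0.10, an interval that includes 0. By deposited fold over local background, code 8 had 5.04 and 5.00 at SPL2, 3.62 and 3.49 at PHO81, and 4.89 and 4.89 at PHO84. Code 11 had 4.74 and 5.51, 3.51 and 3.94, and 4.68 and 5.04 in the same order. Under that fold SPL2 and PHO84 thus hardly differed over time in code 8. PHO8 and PHO5, higher at 180 min in both codes, had differences of the other sign, -0.27 and -0.16, and -0.34 and -0.23 relative to these medians. The 26 other phosphate genes are outside this count, and some of them also had opposite signs. Examples are PHO87, with -0.07 in code 8 and 0.36 in code 11, and PHO3, with -0.26 and 0.07.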

How the results depend on the processing

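Medians over the phosphate promoters kept their sign under all alternatives run except the window of 1000 bp upstream, which adds PHO84 and PHO89 and can take the summit of a neighbouring gene. There the median was -0.0013 in code 8 over time (0.1125 with the window of 400 bp) and -0.0217 for code 11 against code 8 at 0 min (0.0164). In code 11 over time the median ran from 0.1225 with that window to 0.2110 without PHO8, a setting added after seeing the data. With a window of 250 bp upstream to 50 bp downstream, 3 promoters instead of 6 had a summit in each list, where 49.5% to 51.5% of all promoters had one. With the deposited fold, with the chromosome median subtracted and at 1.5-fold, 0 promoters passed in code 8 over time instead of 1, and at 1.1-fold 2 of 6 did, beside 28.8% of all promoters. At 1.1-fold 4 of 6 passed in code 11 over time, beside 22.9%, and 5 of 6 for code 11 against code 8 at 180 min, beside 32.1%, instead of 0. Of 76 alternative values 64 kept their sign and stayed within counting error, or for counts within 1.5 times. No paired analysis was possible because the lists carry no replicate number, and leaving out a replicate could not be run for the same reason. The depth limits PHO5 most, where the counting half-width over time was 0.15 in code 8.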
